A study of Drosophila melanogaster with 6 samples.

Results

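The 8 receptor genes of the basiconic sensilla ab4, ab6, ab7 and ab8 of the fly antenna were examined in antennae in which programmed cell death (PCD) had been blocked and in control antennae. They were chosen by symbol, as Or7a, Or56a and Or33a of ab4, Or49b of ab6, Or98a and Or67c of ab7, and Or43b and Or9a of ab8. All 8 were found among the 17698 gene identifiers counted per library, and all 8 passed the filter on low counts. Transcripts of whole antennae of adult female Drosophila melanogaster were counted by RNA-seq in 6 libraries. The 3 PCD-blocked libraries came from peb-Gal4/+;Or49a-GFP/UAS-p35 flies, and the 3 control libraries from peb-Gal4/+;Or49a-GFP/+ flies, which have no p35 transgene. p35 is a baculoviral caspase inhibitor, switched on here by the Gal4 driver inserted at peb, and both groups carried the Or49a-GFP reporter. Each library pooled the antennae of about 350 flies, the libraries form 3 sample pairs of 1 PCD-blocked and 1 control library, and the age of the flies is not given in the sources used here. The pools of a group are described as biological replicates, so p-values measure the spread between such pools and not between single flies.

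Basiconic sensilla are club-shaped hairs of the antenna that house the dendrites of olfactory neurons, most of which detect food odours. Each neuron type in a sensillum expresses its own tuning receptor together with the co-receptor Orco, and the neurons that share a hair arise from a common sensory organ precursor, some of whose daughter cells normally die during development. The neurons of ab4 express Or7a in one cell and Or56a with Or33a in its neighbour, those of ab7 express Or98a and Or67c, and those of ab8 express Or43b and Or9a. In ab6 the partner of Or49b is Or13a, which is not among the 8 genes and is given beside Or49b because the ab6 comparison needs it. The question addressed was whether receptor transcripts of neurons housed together changed alike when death was blocked.

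The 8 genes lie apart in the genome. In the BDGP6 annotation Or7a is at 8164266 to 8165708 and Or9a at 10458186 to 10459676 on chromosome X, Or33a at 11934505 to 11935716 on 2L, and Or67c at 10243320 to 10244706 on 3L. Or98a is at 27845950 to 27847260 on 3R, and chromosome 2R holds Or43b (7920835 to 7922604), Or49b (12842665 to 12844704) and Or56a (19769461 to 19771233). Partners of one sensillum lie on different chromosome arms. Each gene has 1 annotated transcript, of 375 codons (Or49b) to 419 codons (Or56a), and for 6 of the 8 the model ends at the stop codon, with no untranslated part. Or43b shares 575 bases of exon with Cul1, a ubiquitin ligase subunit gene on the opposite strand. Whether strand was used in counting is not given in the sources used here, and Cul1 itself had 175 ± 2.98 CPM in PCD-blocked and 172 ± 0.380 CPM in control antennae (SD, n = 3 each).

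Gene counts summed to 15588725 to 17499907 in PCD-blocked libraries and to 17370320 to 17808516 in control libraries. CPM is the read count relative to the library total, expressed as counts per 1e+06 after TMM scaling, a correction for differences in RNA composition. Orco had 3086, 3127 and 3080 CPM in PCD-blocked libraries and 3013, 3066 and 2958 CPM in controls, so that all PCD-blocked libraries lay slightly above all controls, with a log2 fold change of 0.040 ± 0.031 (SE) that did not pass (edgeR, adjusted p = 0.382). Of 6 general neuronal genes such as elav and nSyb none passed. The summed level of 7 photoreceptor genes was 16.0 to 19.0 CPM in PCD-blocked and 8.29 to 9.30 CPM in control antennae. Of its 4 tested genes 1, trp, was higher, and trp held most of the sum. It had 13.4 ± 1.17 CPM in PCD-blocked and 5.54 ± 0.655 CPM in control antennae (SD, n = 3 each). The opsin genes ninaE, Rh3 and Rh4 had too few reads to be tested, and Rh5 and Rh6 did not pass. The summed level of 4 fat body genes was 14.6 to 24.3 CPM in PCD-blocked and 24.9 to 159 CPM in control antennae. Of its 3 tested genes 2 were lower, Yp2 and Yp3, and both were highest in control library 1. In control libraries 1 to 3 Yp2 had 65.1, 18.7 and 12.0 CPM and Yp3 had 70.6, 19.55 and 9.24 CPM. In pair 3 the log2 differences were -0.23 for Yp2 and -0.15 for Yp3. For 6 glial genes the sum was 3225 to 3363 CPM in PCD-blocked and 3793 to 3846 CPM in control antennae. Of its 5 tested genes 1 was lower, Gs2, and Gs2 held most of the sum. Its mean was 2788 CPM in PCD-blocked and 3290 CPM in control antennae. The glial gene repo was higher, with a mean of 41.1 CPM in PCD-blocked and 32.5 CPM in control antennae. The other tested glial genes, nrv2, moody and Eaat1, did not pass. For 8 odorant-binding protein genes of support cells the sum was 25740 to 26420 CPM in PCD-blocked and 26650 to 27860 CPM in control antennae. Of these 8 tested genes 4 were lower (lush, Obp84a, Obp59a and Obp56d) and 1 was higher, Obp28a. Obp28a had 3889 ± 218 CPM in PCD-blocked and 3076 ± 64.6 CPM in control antennae. The summed level of 7 maxillary palp receptors was 24.3 to 29.2 CPM in PCD-blocked and 29.7 to 31.5 CPM in control antennae. Of its 4 tested genes 1 was lower, Or46a, at 19.7 ± 1.17 CPM in PCD-blocked and 25.9 ± 0.911 CPM in control antennae. Or42a and Or85e had higher CPM in every PCD-blocked library than in any control library but did not pass. For 5 muscle genes the sum varied widely between libraries, from 1.08 to 33.35 CPM in PCD-blocked and from 3.41 to 27.8 CPM in control antennae. None of the 4 tested muscle genes passed. No member of these lists was at 0 in all libraries, and Rh3, an opsin of the eye, had no count in the PCD-blocked libraries. Their part in the receptor results was not tested. In RNA from whole antennae, fewer neurons of a type and less receptor RNA per neuron cannot be told apart.

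Several receptors of these sensilla had lower transcript levels in PCD-blocked antennae, and none was called higher. Of the 8 genes, 4 were lower in PCD-blocked antennae (Or43b, Or67c, Or49b and Or9a), 0 were higher and 4 did not pass (Or33a, Or56a, Or7a and Or98a; edgeR quasi-likelihood test with the sample pair as a block, adjusted p under 0.05). Over all 9181 tested genes 13.3% were called lower and 14.3% higher (1225 and 1314 genes). That split moved with the scaling, to 980 lower and 1704 higher with library totals alone and to 1721 lower and 1044 higher with libraries scaled to equal Orco, under which 3 and 5 of the 8 genes were lower and none higher. The falls were modest, from 7.62% for Or9a to 28.9% for Or43b. The median log2 fold change was -0.24 over the 8 genes and 0.00084 over all tested genes. Summed over the 8 genes the level was 394 ± 15.6 CPM in PCD-blocked antennae and 459 ± 19.9 CPM in controls. In 3 of the 8 the groups did not overlap, with the PCD-blocked libraries below. Over all tested genes the groups did not overlap for 38.7%, and the PCD-blocked libraries were below for 18.8%. With DESeq2 2 of the 8 were lower, Or43b and Or67c, against 7.21% of all genes. Without pair 2 the same 2 passed with edgeR, when 728 genes in all were called lower, against 1225 with all pairs.

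**Figure D1:**
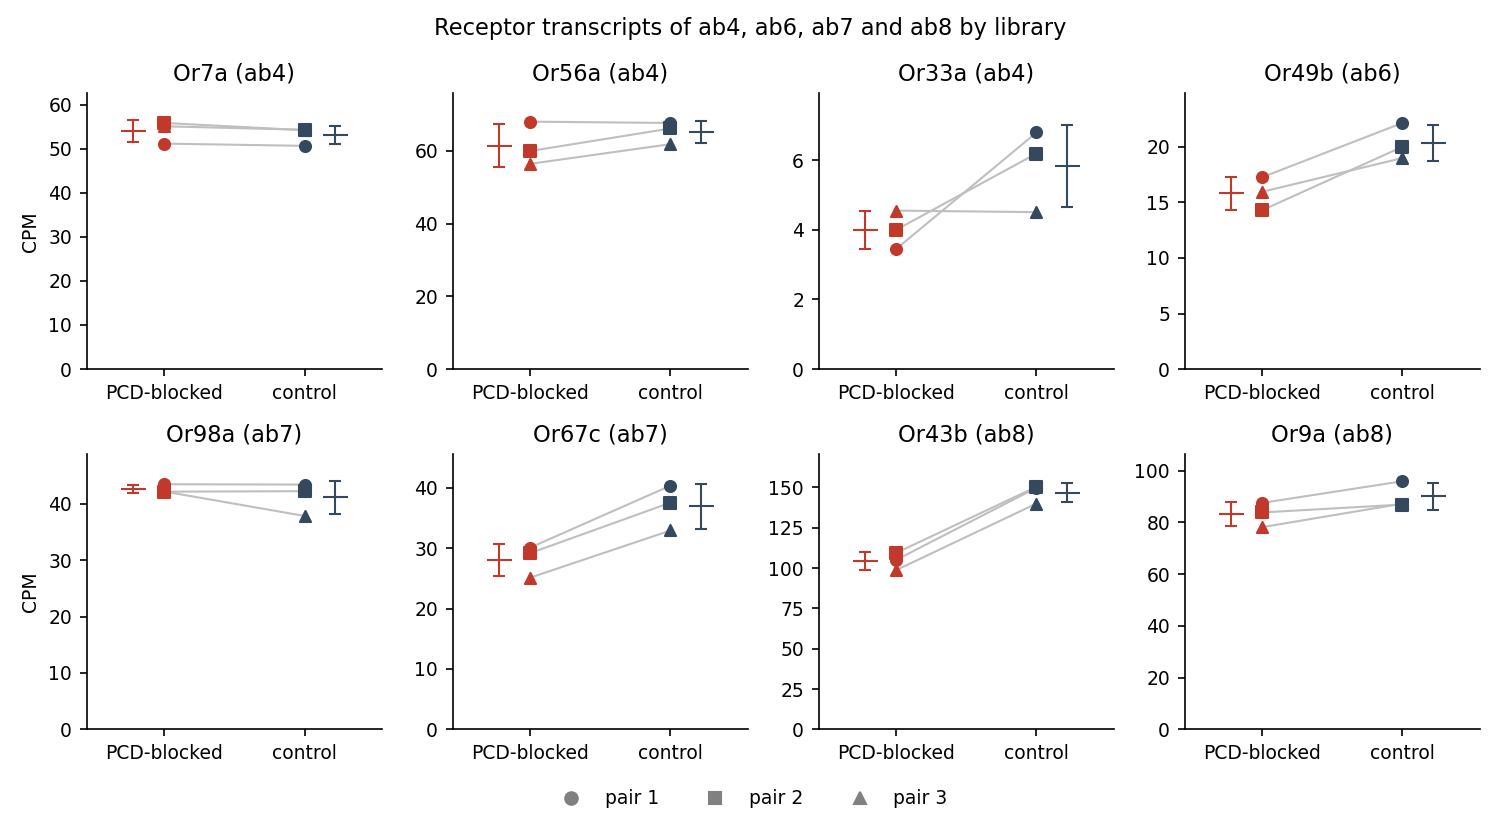
CPM (y axis, from 0) of the 8 receptor genes in each library, PCD-blocked on the left and control on the right. Symbols mark the sample pair, grey lines join the libraries of a pair, and bars beside the points give the mean ± SD of 3 libraries. Or43b, Or67c and Or49b were lower in every PCD-blocked library than in any control library, while the points of Or7a, Or56a, Or33a, Or98a and Or9a overlap.

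The largest fall past the threshold was in ab8. Or43b (FBgn0026393), a receptor for fruit esters, had 105, 109 and 98.7 CPM in PCD-blocked libraries 1 to 3 and 149.8, 150.4 and 140.0 CPM in control libraries 1 to 3. All PCD-blocked libraries lay below all controls, and the library of lowest level was that of pair 3 in both groups. The fit gave a log2 fold change of -0.49 ± 0.033 (SE; 95% interval -0.57 to -0.42; edgeR, adjusted p = 1.56e-05), and the 3 pairs gave -0.51, -0.46 and -0.50. Or9a (FBgn0030204), its partner in ab8, is a receptor for compounds such as acetoin. It had 87.5, 83.9 and 78.2 CPM in PCD-blocked and 95.9, 86.9 and 87.3 CPM in control libraries. Every pair was lower in the PCD-blocked library, by 0.13, 0.052 and 0.16 on the log2 scale, but the groups overlapped, since PCD-blocked library 1 was above control libraries 2 and 3. The log2 fold change was -0.11 ± 0.037 (SE) with an edgeR adjusted p of 0.0498. This call stood close to the threshold. It did not hold when 1 pair was dropped (edgeR adjusted p between 0.0752 and 0.251), when the pairing was ignored (0.179) or when library totals set the scale (0.156), nor in limma-voom (0.0613) or DESeq2 (0.458).

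In ab7 one partner fell and the other did not pass. Or67c (FBgn0036078), a receptor for ethyl lactate, had 30.1, 29.2 and 25.1 CPM in PCD-blocked and 40.3, 37.5 and 32.9 CPM in control libraries. The groups did not overlap, and in both the third library was lowest, so that the pairs were more alike in their change (-0.42, -0.36 and -0.39) than the libraries were in level. The fall was 23.9% (log2 fold change -0.39 ± 0.051 SE; edgeR, adjusted p = 0.000597). Or98a (FBgn0039551), a receptor of broad tuning, had 43.5, 42.1 and 42.2 CPM in PCD-blocked and 43.4, 42.2 and 37.8 CPM in control libraries. In pairs 1 and 2 the libraries were nearly equal, and pair 3 differed through a low control. Its log2 fold change of 0.051 ± 0.052 (SE) did not pass (edgeR, adjusted p = 0.516), and the 95% interval, -0.067 to 0.17, corresponds to changes between -4.54% and 12.5%.

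In ab6 the receptor Or49b (FBgn0028963), which detects methylphenols, had 17.3, 14.3 and 16.0 CPM in PCD-blocked and 22.2, 20.01 and 19.0 CPM in control libraries. All PCD-blocked libraries were lower than all controls, and the 3 pairs fell by 0.36, 0.49 and 0.25 on the log2 scale. The log2 fold change was -0.37 ± 0.073 (SE; edgeR, adjusted p = 0.00614). It no longer passed once pair 2 was dropped (edgeR adjusted p = 0.0765) or when DESeq2 was used (0.131). Its partner Or13a, a receptor for octenol, had 33.1, 28.1 and 31.4 CPM in PCD-blocked and 36.6, 31.7 and 34.0 CPM in control libraries. Or13a was lower in each PCD-blocked library than in the control of its pair, but the groups overlapped, and its log2 fold change of -0.14 ± 0.051 (SE) did not pass (edgeR, adjusted p = 0.0688).

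The receptors of ab4 did not pass in either neuron type. Or7a (FBgn0030016), which detects leaf aldehydes, had 51.1, 55.8 and 55.1 CPM in PCD-blocked and 50.6, 54.2 and 54.3 CPM in control libraries. The libraries of each pair differed by at most 0.043 on the log2 scale, and in both groups the first library was lowest. The log2 fold change was 0.026 (95% interval -0.067 to 0.12; edgeR, adjusted p = 0.684), its sign turning to -0.014 when the libraries were scaled to equal Orco. Or56a (FBgn0034473), the receptor for the microbial odour geosmin, had 68.0, 60.0 and 56.4 CPM in PCD-blocked and 67.7, 66.2 and 61.9 CPM in control libraries. Pair 1 was level and pairs 2 and 3 were lower in the PCD-blocked library by 0.14 and 0.13, and the log2 fold change of -0.088 ± 0.044 (SE) did not pass (edgeR, adjusted p = 0.182).

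Or33a (FBgn0026392), co-expressed with Or56a, was the least abundant of the 8, with 54, 69 and 81 reads in PCD-blocked and 118, 107 and 78 reads in control libraries. These correspond to 3.44, 3.99 and 4.55 CPM in PCD-blocked and 6.79, 6.19 and 4.51 CPM in control antennae. The pairs disagreed: the log2 differences were -0.98, -0.63 and 0.014, and in pair 3 the 2 libraries had the same level within counting error (Wilson 95% intervals of 3.72 to 5.75 CPM in the PCD-blocked and 3.598 to 5.604 CPM in the control library, before TMM scaling). The log2 fold change of -0.53 ± 0.19 (SE) did not pass (edgeR, adjusted p = 0.0759). It passed without pair 3 (-0.80, adjusted p = 0.0103 with edgeR), with no filter on low counts (0.0348) and when scaled to Orco (0.0425), and without pair 1 it was -0.32 (0.355). Or33a is the first gene of a tandem cluster on 2L, with Or33b beginning 465 bases beyond it. Or33b, counted here among the other basiconic receptors, had 8.87 ± 1.28 CPM in PCD-blocked and 0.173 ± 0.115 CPM in control antennae (log2 fold change 5.61 ± 0.31 SE; edgeR, adjusted p = 5.57e-06). The third gene of the cluster, Or33c, had 1.57 ± 0.591 CPM in PCD-blocked and 1.60 ± 0.521 CPM in control antennae and did not pass (edgeR, adjusted p = 0.954).

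**Figure D2:**
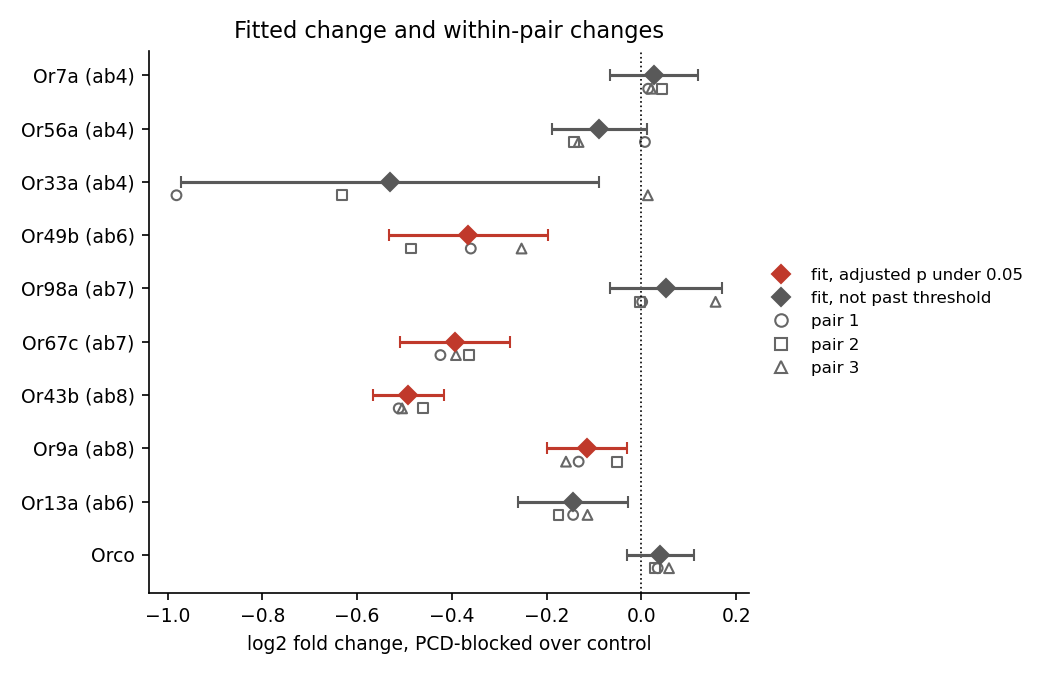
Log2 fold change of PCD-blocked over control antennae (x axis) for the 8 genes, Or13a and Orco. Diamonds and bars are the edgeR estimate with its 95% interval, red where the adjusted p was under 0.05, and open symbols below each are the differences of the 3 sample pairs. The pairs of Or43b and Or67c lie close together between -0.51 and -0.36, whereas those of Or33a spread from -0.98 to 0.014.

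Partners were then compared directly by the ratio of their counts within a library, which does not depend on how libraries are scaled. In ab7 the ratio of Or98a to Or67c was 1.44, 1.44 and 1.68 in PCD-blocked and 1.08, 1.12 and 1.15 in control libraries. The ranges did not overlap, and the ratio was 1.36-fold that of controls. In ab8 the ratio of Or43b to Or9a was 1.20, 1.30 and 1.26 in PCD-blocked and 1.56, 1.73 and 1.60 in control libraries, 0.770-fold that of controls. Again the ranges did not overlap, with all PCD-blocked libraries below. In ab6 the ratio of Or49b to Or13a was 0.521, 0.508 and 0.508 in PCD-blocked and 0.605, 0.630 and 0.560 in control libraries, a shift of -0.22 on the log2 scale. Each of these 3 shifts kept its sign in all 3 pairs. Each reached the smallest value that an exact two-sided permutation test of 3 against 3 libraries can give, p = 0.1, or 0.167 adjusted over the 5 ratios, so this test cannot place them under 0.05.

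In ab4 the ratio of Or7a to Or56a was 0.752, 0.931 and 0.976 in PCD-blocked and 0.748, 0.819 and 0.878 in control libraries. The ranges overlapped, and the log2 shift of 0.12 was smaller than the SD of the PCD-blocked libraries, 0.20 (exact permutation p = 0.4, also 0.4 adjusted). The ratio of Or33a to Or56a, receptors of the same neuron, was 0.0506, 0.0666 and 0.0806 in PCD-blocked and 0.1003, 0.0935 and 0.0728 in control libraries. It shifted by -0.44 with overlapping ranges and opposite signs between pairs (exact permutation p = 0.2, adjusted 0.25).

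**Figure D3:**
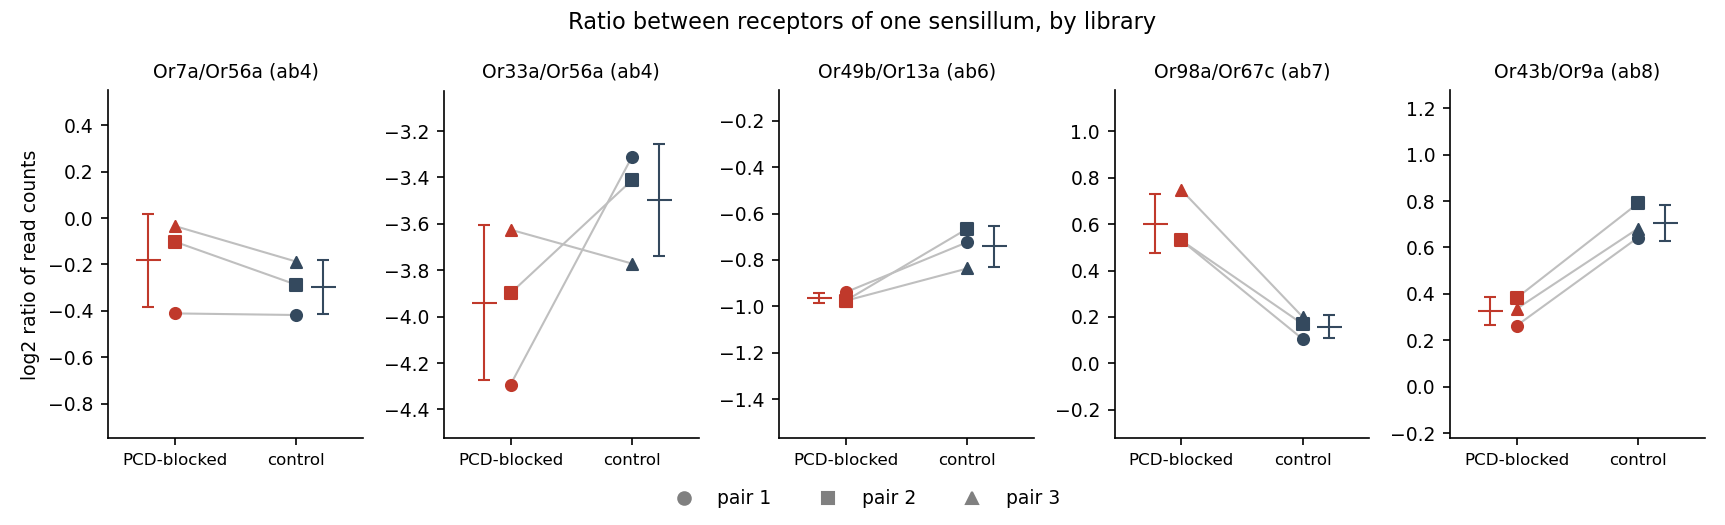
Log2 ratio of read counts between receptors of one sensillum (y axis, each panel spanning the same log2 width around its own centre), PCD-blocked on the left and control on the right. Symbols and grey lines mark the sample pairs and side bars the mean ± SD of 3 libraries. Groups are apart for Or49b/Or13a, Or98a/Or67c and Or43b/Or9a and overlap for both ab4 ratios.

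Levels of different genes were compared per kb of annotated exon, a scale that leaves out transcript ends the models lack. In controls Or43b was highest at 103.9 ± 4.13 CPM per kb, followed by Or9a (76.4 ± 4.33), Or56a (51.8 ± 2.40), Or7a (42.7 ± 1.67), Or98a (34.5 ± 2.46), Or67c (30.4 ± 3.08), Or49b (11.7 ± 0.927) and Or33a (5.13 ± 1.04; SD, n = 3 each). The order was the same in PCD-blocked antennae, but the spacing was not. Between Or43b and Or9a the gap narrowed, at 73.9 ± 3.80 and 70.5 ± 4.003 CPM per kb in PCD-blocked antennae, and their libraries overlapped there but not in controls. The overlap depended on the length used, since the Or43b model has an untranslated part that the Or9a model lacks. Per kb of coding sequence Or43b was at 86.3 ± 4.43 and Or9a at 70.7 ± 4.01 CPM per kb in PCD-blocked antennae, with no overlap, and they were at 121 ± 4.82 and 76.6 ± 4.34 CPM per kb in controls. Between Or98a and Or67c it opened, at 35.7 ± 0.628 and 23.1 ± 2.18 CPM per kb in PCD-blocked antennae, where the libraries were apart, whereas they overlapped in controls. Or56a and Or7a overlapped in PCD-blocked antennae and not in controls. Expressed as a share of both partners per kb of annotated exon, Or43b made up 51.2% ± 1.04 of the ab8 pair in PCD-blocked and 57.7% ± 1.29 in control antennae. Or98a made up 60.7% ± 2.07 of the ab7 pair in PCD-blocked and 53.2% ± 0.840 in control antennae, and Or49b 27.0% ± 0.288 of the ab6 pair in PCD-blocked and 30.2% ± 1.27 in control antennae. In ab4 Or7a made up 47.2% ± 3.46 of Or7a and Or56a in PCD-blocked and 45.2% ± 1.98 in control antennae. The level and share of Or49b also depend on the length used, since its model has an untranslated part that the Or13a model lacks. Per kb of coding sequence Or49b was at 14.1 ± 1.32 and Or13a at 24.6 ± 2.03 CPM per kb in PCD-blocked antennae. In controls they were at 18.1 ± 1.43 and 27.2 ± 1.94 CPM per kb, so the share of Or49b is larger on that scale.

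**Figure D4:**
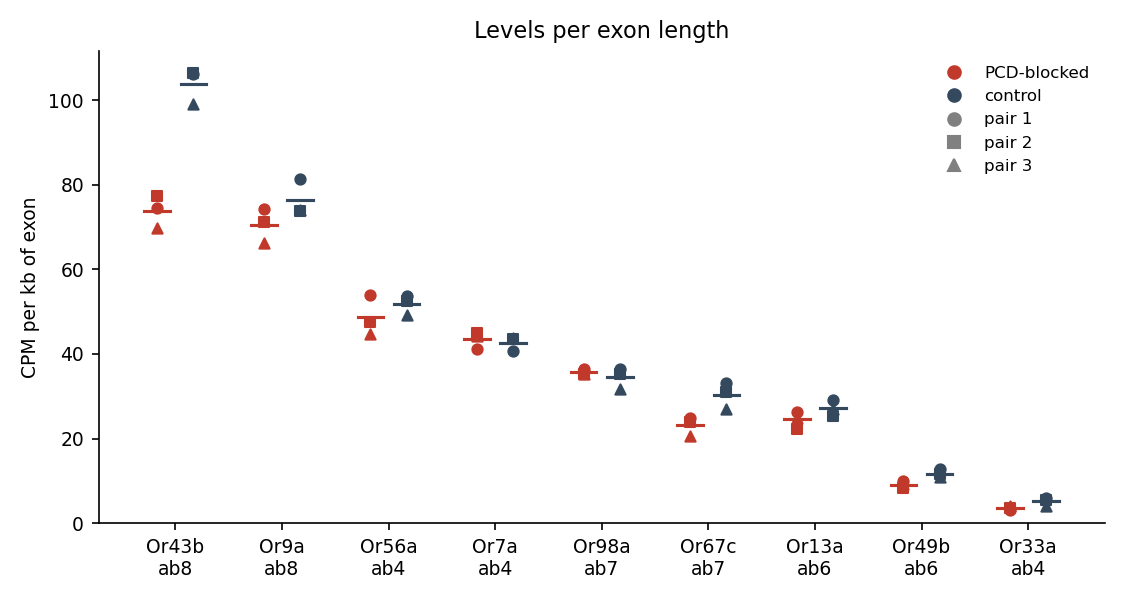
CPM per kb of annotated exon (y axis, from 0) for the 8 genes and Or13a, ordered by their control mean. Red points are PCD-blocked and dark points control libraries, symbols mark the sample pair and short lines the mean of 3 libraries. Or43b stands well above Or9a in controls and closer to it in PCD-blocked antennae, where the points overlap on this scale but not per kb of coding sequence.

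The precision behind these values differed between genes. Counts per library ran from 54 for Or33a to 2603 for Or43b, and the coefficient of variation among libraries was 13.9% in PCD-blocked and 20.3% in control antennae for Or33a, where counting alone gives 12.1% and 9.95%. For Or43b it was 5.14% in PCD-blocked and 3.97% in control antennae, where counting gives 2.38% and 1.98%. For Or98a the PCD-blocked libraries varied by 1.76%, less than the 3.73% that counting gives.

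Set among the 52 tested antennal tuning receptors, which ran from strong rises to moderate falls, the 8 genes occupied the lower part and the middle. Counted from the most negative log2 fold change, Or33a was at place 4, Or43b 6, Or67c 10, Or49b 11, Or9a 25, Or56a 28, Or7a 30 and Or98a 33. Falls were common among the 44 other tested tuning receptors too, of which 15 were lower, 16 higher and 13 did not pass. Of 20 other receptor genes of basiconic sensilla (Or13a included), 18 were tested, 8 were higher, 7 lower and 3 did not pass, with a median log2 fold change of -0.12, and Or10a and Gr10a had no counts. The rises with the smallest p were those of Or42b, a receptor of ab1, with 110 ± 2.10 CPM in PCD-blocked and 16.3 ± 3.74 CPM in control antennae, and of Or33b. The falls with the smallest p were those of Or22a and Or85b, which share ab3, at -0.49 ± 0.041 and -0.52 ± 0.045 (SE) on the log2 scale. Whether the 8 genes differ from the other basiconic receptors was not tested.

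Among 44 other tested tuning receptors, likeness of pattern was measured as the mean absolute difference of the 3 within-pair log2 changes. Or43b was nearest to Or22a (0.013), whose pairs gave -0.53, -0.45 and -0.49. Or67c was nearest to Ir31a (0.052) and Or49b to Or59b (0.076), both of which were lower in PCD-blocked antennae. Or9a was nearest to Or92a (0.036), Or56a to Or13a (0.068), and both Or7a (0.038) and Or98a (0.053) to Ir75b, none of which passed. For Or33a the nearest, Or35a, was far (0.27). These are likenesses over 3 pairs and carry no test.

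**Figure D5:**
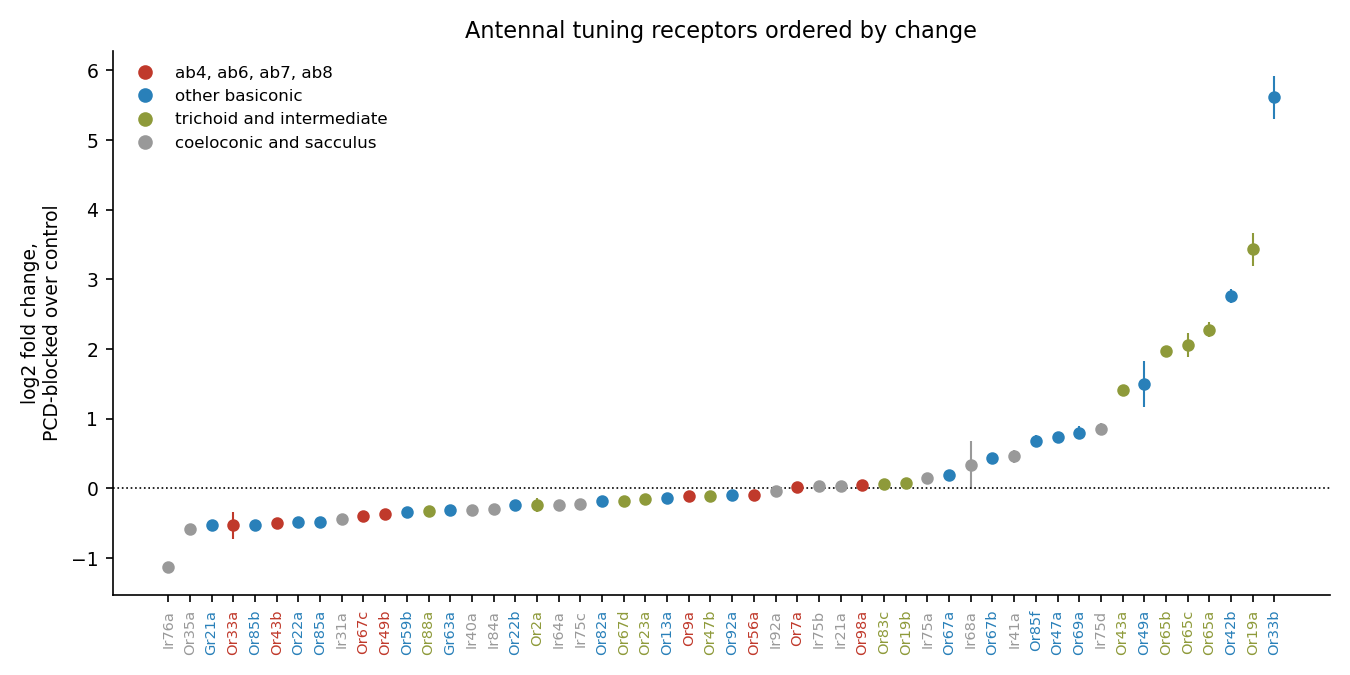
Log2 fold change of PCD-blocked over control antennae (y axis) for the 52 tested antennal tuning receptors in order of their change, with bars of 1 SE. The 8 genes of ab4, ab6, ab7 and ab8 are red, other basiconic receptors blue, trichoid and intermediate ones green, and coeloconic and sacculus ones grey. The red points lie between -0.53 and 0.051, while the rises at the right belong to other receptors.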

How the data were processed

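RNA from antennae of 6 fly pools was extracted with TRIzol, selected for poly(A) and made into directional libraries, per the labels' protocols. The deposited values are raw read counts per gene, 1 file per library. Tools named in the submitters' processing notes are STAR 2.5.3a, HTSeq 0.9.1 and cutadapt 1.8, with BDGP6 as genome build and no roles or settings; strand setting and annotation release were not given in the sources used here. Where genes share exons, reads may therefore be lost or mixed. Rows that name no gene, 11.9% to 13.5% of counts, were left out. Of 17698 identifiers 17560 matched the Ensembl 115 annotation, which gave symbols, positions and exon lengths.

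Genes were tested with edgeR 4.0.16 (R 4.3.3; TMM, default filter by group, quasi-likelihood test), with p-values adjusted by Benjamini-Hochberg over 9181 genes. Standard errors and 95% intervals come from the fold change and test statistic. The sample pair was a block, since the series text calls the design paired and the labels give the pairs. Deviations from the group means correlated at 0.141, 0.209 and 0.0885 within pairs 1, 2 and 3, and at -0.181 to 0.0534 between libraries of different pairs. Centring on the group means ties these values to one another, so they do not by themselves show that the pairing is informative. Replicates differed by more than sampling noise (chi-square per degree of freedom 4.07 to 10.5). Partner ratios used counts plus 0.5 and exact permutation tests (SciPy 1.17.1). A count of 3 equals 0.168 to 0.192 CPM per library; intervals and this floor cover counting error only. The gene test was checked on simulated counts, where it recovered 55.5% of genes changed 1.25-fold and 89.9% of those changed 2-fold. Of its calls there 3.2% were unchanged genes. The simulated counts held no differences between pairs, so the block itself was not checked.

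Named genes were the 8 receptors, Or13a and Orco, the 2 rises and 2 falls of smallest p among other basiconic receptors, and for each of the 8 the tuning receptor nearest in pattern. Cul1, Or33c, genes named from the cell type lists and genes named by position were added afterwards. The members and lists were chosen with earlier results of these data known. Alternatives were median-of-ratios, library-total, Orco and reduced TMM scaling (without genes above 1% of counts), DESeq2 1.42.0, limma-voom (limma 3.58.1), 2 other filters, no block and each pair left out.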

Additional observations from a re-analysis of the deposited data

How the results depend on the processing

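Over 12 alternatives for each of the 8 genes, 83 of 96 values kept their direction and their side of the threshold. Or43b (log2 fold change -0.53 to -0.46) and Or67c (-0.43 to -0.36) were lower under all 12, and Or56a and Or98a passed under none. Or9a lost its call with library totals (-0.078), without the replicate block (-0.12), with DESeq2 (-0.12), with limma-voom (-0.11) and with each pair left out (-0.15 to -0.091). Or49b lost it with DESeq2 (-0.37) and without pair 2 (range with a pair left out -0.42 to -0.31). Or33a passed with Orco scaling (-0.57), with no filter (-0.54) and without pair 3 (range -0.80 to -0.32). Or7a changed sign with Orco scaling (-0.014). The cause of these shifts was not tested. Or9a was the 1 gene of the 8 whose call changed without the pair as a block. With the pairing as a replicate block, the exact permutation test of the partner ratios gives at best p = 0.25, reached by Or7a/Or56a, Or49b/Or13a, Or98a/Or67c and Or43b/Or9a (0.5 for Or33a/Or56a). With a pair left out the ratios kept their direction, at 0.080 to 0.17 for Or7a/Or56a, -0.73 to -0.17 for Or33a/Or56a, -0.26 to -0.18 for Or49b/Or13a, 0.39 to 0.49 for Or98a/Or67c and -0.39 to -0.36 for Or43b/Or9a, and pseudocounts of 0 and 5 turned none. Over all genes DESeq2 called 653 higher and 662 lower, and with a pair left out 753 to 1065 were higher and 728 to 1006 lower, against 1314 and 1225. The split of higher and lower calls was 1704 and 980 with library totals and 1044 and 1721 with Orco scaling. Counts per library limit Or33a most.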

Other observations

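The genes beside the 8 receptors were examined in the same fit. Of 27 genes in the files that overlap one of the 8 or are among the 2 nearest on either side, 16 were tested: with edgeR 4 rose in PCD-blocked antennae, against 14.3% of all tested genes, 0 fell and 12 did not pass. The 4 were Or33b, Cyp9h1, CG34353 and the phosphodiesterase gene Pde1c, which rose by 0.19 on the log2 scale beside Or33a. Cyp9h1, a cytochrome P450 gene 107 bases from Or49b on the other strand, had 17.9 ± 1.83 CPM in PCD-blocked and 6.68 ± 0.855 CPM in control antennae (SD, n = 3 each; log2 fold change 1.42 ± 0.084 SE; edgeR, adjusted p = 7.72e-06), while Or49b was lower. CG34353, a gene on the other strand that holds Or98a between its exons, had 47.7 ± 0.361 CPM in PCD-blocked and 37.5 ± 1.59 CPM in control antennae (0.35 ± 0.049 SE; edgeR, adjusted p = 0.000951). Or98P, a pseudogene 536 bases from Or98a, had 1 read in each group.

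The noncoding gene lncRNA:CR44541, 78 bases from Or67c on its strand, had 6.96 ± 0.512 CPM in PCD-blocked and 8.60 ± 0.853 CPM in control antennae (log2 fold change -0.30 ± 0.10 SE; edgeR, adjusted p = 0.0583), a difference in the direction of Or67c that did not pass.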
